A study of Mus musculus with 40 samples.

Results

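The TNF receptor superfamily and its ligands were followed here through 10 genes of mouse CD4 T cells: the receptors Tnfrsf4, Tnfrsf8, Tnfrsf9, Tnfrsf18, Tnfrsf1b, Cd27 and Fas and the ligands Tnfsf8, Tnfsf11 and Fasl. They were taken by name from the 39179 genes of the RNA table, and all 10 passed the filter on low values with 17254 genes in all. RNA was sequenced in 18 libraries of spleen CD4 T cells from C57BL/6 mice labelled Setdb1-/- (called KO) or Setdb1+/+ (called WT). SETDB1 is an enzyme that adds the silencing mark H3K9me3 to histones, and the series asks how it bears on the commitment of T helper 2 (Th2) cells. Naive cells, uncultured, gave 3 KO and 4 WT libraries. Th2 cells, with 3 KO and 3 WT libraries, had been cultured for 6 days with IL-4 at 50 ng/mL and an antibody against IFN-gamma. They had antibodies to CD3 and CD28 in the first part of the culture and IL-2 at 30 IU/mL after it. Th2-Th1 cells, with 3 KO and 2 WT libraries, were such Th2 cells moved for 2 further days to IL-12 at 10 ng/mL with an antibody against IL-4. Another 22 samples were condensed by the authors into 13 peak lists of chromatin marks and open chromatin, with Suv39h1-/- Th2 cells profiled for H3K9me3. The labels give neither the way the Setdb1 deletion was made nor the animal or culture behind a replicate. The p-values therefore measure only how far these libraries spread, which may be technical.

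Members of the TNF receptor superfamily sit in the cell membrane and pass signals when a ligand of the TNF family, usually a trimer on another cell, binds them. TNFRSF4 (OX40), TNFRSF9 (4-1BB), TNFRSF18 (GITR), TNFRSF8 (CD30), TNFRSF1B (TNFR2) and CD27 recruit TRAF adaptors, activate NF-kB and act as costimulatory receptors of T cells. FAS carries a death domain and triggers apoptosis when bound by FASL. TNFSF8 is the ligand of CD30, and TNFSF11 (RANKL) binds RANK on osteoclast precursors and dendritic cells. Most of the costimulatory receptors are induced when T cells are activated, while CD27 is already present on naive cells.

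Total reads were 12.775 to 15.335 M per library in naive KO and 10.019 to 18.511 M in naive WT. They were 36.261 to 44.719 M in Th2 KO against 10.141 to 13.258 M in Th2 WT. In Th2-Th1 cells they were 37.208 to 37.603 M in KO against 18.901 and 19.841 M in WT. Every KO library thus had more reads than every WT library in both cultured stages. Genotype and read depth cannot be told apart there, and the part of depth in the results was not tested. The check of the labels gave a Setdb1 level of 1006 ± 87.2 normalised reads in naive KO and 1310 ± 66.4 in naive WT (SD, n = 3 and 4). In Th2 cells it was 8485 ± 503 in libraries labelled KO and 822.6 ± 121 in WT, and in Th2-Th1 cells 6244 ± 1020 in libraries labelled KO and 1603 ± 12.1 in WT. The level thus went against the label in both cultured stages. KO below always means the libraries labelled KO. When all libraries were thinned to the same depth, more genes had reads in naive KO replicate 2 (22210) and naive WT replicates 1 (21277) and 3 (25556) than in the other libraries (15128 to 18640). All 5 T cell markers were detected in every group, and their summed level in normalised reads was lower in KO at each stage. It was 52602 to 67267 in naive KO against 67759 to 75856 in naive WT (1 marker called higher and 2 lower). In Th2 cells it was 25000 to 28166 in KO against 39177 to 39446 in WT (1 and 3). In Th2-Th1 cells it was 37123 to 41966 in KO against 85467 to 89554 in WT (0 and 3). Such sums depend on the size factor by which the reads of a library were divided. That factor did not follow total reads alone. It was 2.517 for 44.719 M reads in Th2 KO replicate 1 and 0.496 for 12.33 M in Th2 WT replicate 1. Marker sums per total reads were not computed. Sums of B cell, dendritic, myeloid, and erythroid and platelet markers stayed at or below 455.7 in every library, but some differed by genotype. Erythroid and platelet markers summed to 380.1 to 415.6 in Th2 KO and 17.46 to 22.18 in Th2 WT. Dendritic markers summed to 11.19 to 19.98 in Th2 KO and 142.9 to 217.0 in Th2 WT, and to 163.1 to 230.9 in Th2-Th1 KO and 53.15 to 62.73 in Th2-Th1 WT. The 2 CD8 T cell markers summed to 506.7 to 545.4 in naive KO and 442.5 to 564.9 in naive WT, with 0 called. They summed to 94.02 to 112.8 in Th2 KO and 102.8 to 202.1 in Th2 WT (1 higher and 1 lower). In Th2-Th1 KO their sum was 42.37 to 44.02, against 180.7 to 201.0 in Th2-Th1 WT (0 higher and 1 lower). The part of any of these markers in the results was not tested. In such bulk samples, fewer cells of a type and less RNA per cell cannot be told apart.

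The promoters of 3 receptors are shown: Tnfrsf9, which RefSeq starts at 2 places and which of the 10 genes differed most between the genotypes in Th2 cells, and Tnfrsf8 and Fas, which hold the other motif matches. Each line gives the 250 bases before a start site, 5′ to 3′ on the gene's strand, from RefSeq on GRCm38.p6 (mm10). Capitals mark matches to the NF-kB motif (GGG, any 2 bases, TTTCC) or the AP-1 motif TGANTCA, searched on both strands.
Tnfrsf9, first start, chr4:150919905-150920154, plus strand: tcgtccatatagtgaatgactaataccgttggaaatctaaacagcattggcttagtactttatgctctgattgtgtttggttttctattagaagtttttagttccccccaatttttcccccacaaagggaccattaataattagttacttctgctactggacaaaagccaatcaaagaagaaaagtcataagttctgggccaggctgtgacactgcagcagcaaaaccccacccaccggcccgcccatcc
Tnfrsf9, second start, chr4:150927749-150927998, plus strand: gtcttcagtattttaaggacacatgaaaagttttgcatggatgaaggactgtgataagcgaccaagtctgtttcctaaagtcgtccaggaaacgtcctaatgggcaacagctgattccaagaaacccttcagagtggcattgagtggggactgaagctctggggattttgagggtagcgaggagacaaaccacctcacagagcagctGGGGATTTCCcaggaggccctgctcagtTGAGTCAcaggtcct
Tnfrsf8, chr4:145315165-145315414, minus strand: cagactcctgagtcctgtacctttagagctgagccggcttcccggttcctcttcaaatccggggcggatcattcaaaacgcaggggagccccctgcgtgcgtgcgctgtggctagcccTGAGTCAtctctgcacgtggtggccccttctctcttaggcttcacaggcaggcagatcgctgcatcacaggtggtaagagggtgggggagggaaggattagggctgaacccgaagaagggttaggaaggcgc
Fas, chr19:34290409-34290658, plus strand: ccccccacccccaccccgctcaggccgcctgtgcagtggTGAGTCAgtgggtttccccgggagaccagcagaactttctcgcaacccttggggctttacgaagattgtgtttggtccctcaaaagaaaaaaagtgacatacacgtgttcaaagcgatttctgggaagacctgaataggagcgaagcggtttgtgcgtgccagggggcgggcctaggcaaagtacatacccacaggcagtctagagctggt
All 10 members matched the table of promoters, in 11 windows that reach 50 bases past the start. The NF-kB motif was in 1 of the 11 windows, that of the second Tnfrsf9 start, where it begins at base -43, against 1.63% of 32851 promoters of the same length. The AP-1 motif was in 3 of the 11 windows, against 7.81% of promoters. It begins at base -15 of the second Tnfrsf9 start, at -132 of Tnfrsf8 and at -211 of Fas. The short NFAT core GGAAA, which can overlap the NF-kB motif and is not capitalised, was in 9 of 11 windows and in 61.3% of promoters. A match describes these letters only.

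**Figure D1:**
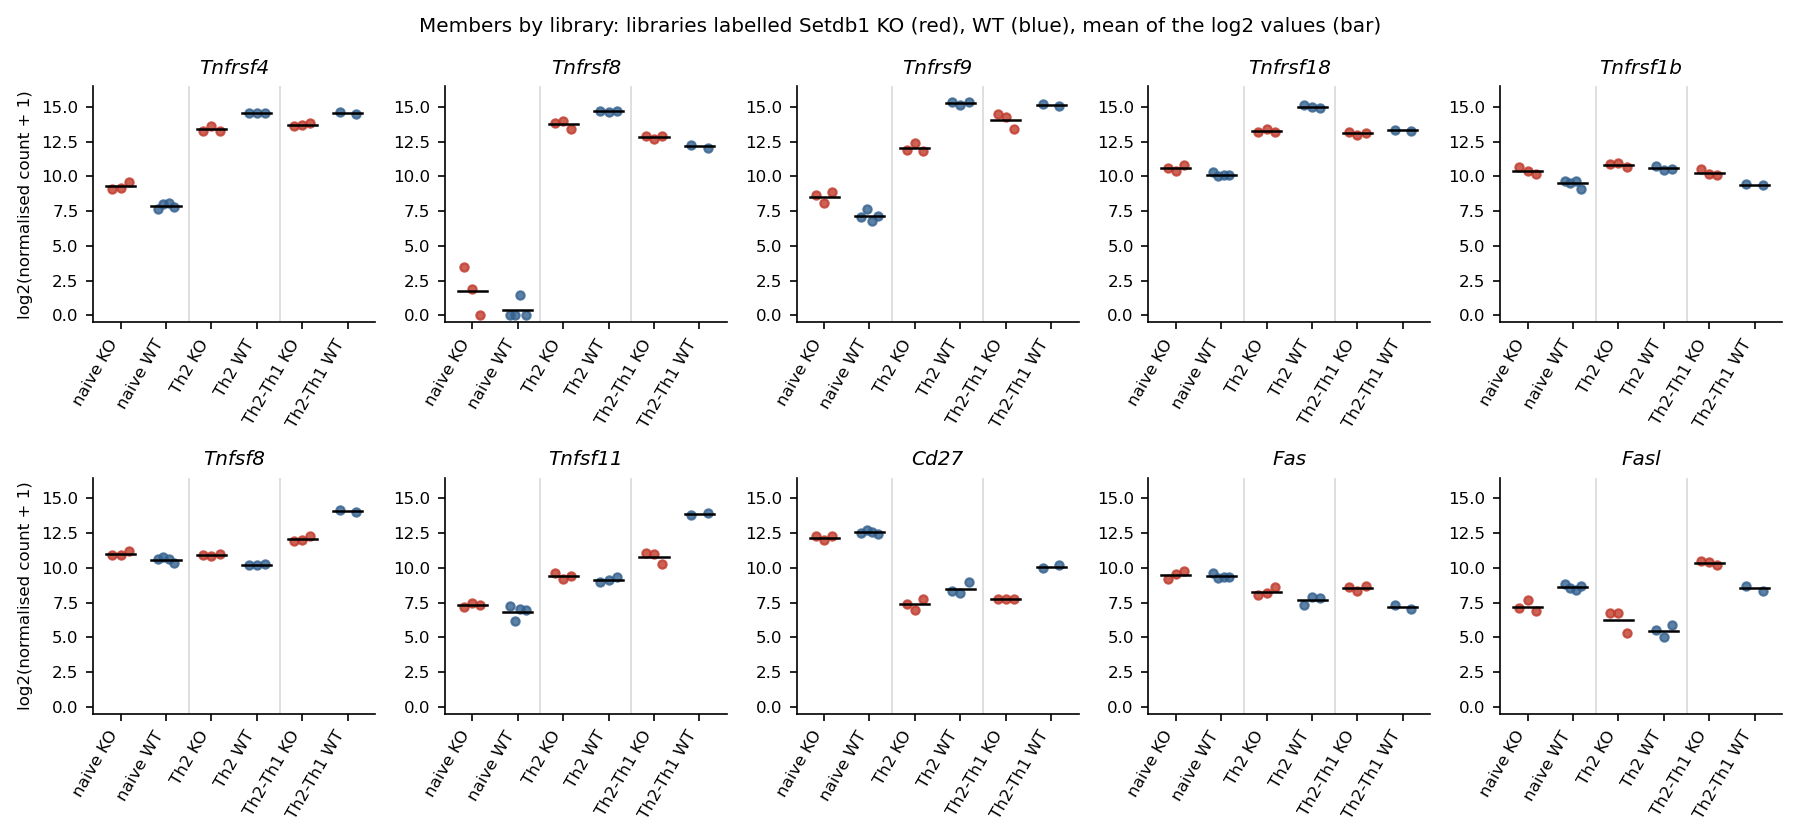
Normalised read counts of the 10 genes (vertical axis, log2 of the value plus 1), one panel per gene, for each RNA library (points) in the 6 groups, with KO left of WT at each stage and bars at the means of the log2 values. Tnfrsf9 in Th2 cells runs from 3716 to 5358 in KO and from 36056 to 41506 in WT.

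In naive cells, 5 of the 10 genes were higher and 1 was lower in KO than in WT, against 10.9% called, 7.43% higher and 3.45% lower among all genes tested (limma with Benjamini-Hochberg adjustment, threshold 0.05). The costimulatory receptors Tnfrsf4, Tnfrsf9, Tnfrsf1b and Tnfrsf18 and the ligand Tnfsf8 were higher, and Fasl was lower. The median log2 difference of the 10 genes was 0.47, beside -0.00 over all genes.

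Tnfrsf4, the OX40 receptor that prolongs T cell responses, had 557.5, 584.3 and 784.2 normalised reads in naive KO, against 203.3, 263.0, 273.4 and 219.2 in naive WT. Every KO library lay above every WT library. The groups did not overlap in 7 of the 10 genes and 16.6% of all genes. The log2 difference was 1.41 ± 0.127 (SE; limma adjusted p = 3.61e-07). Tnfrsf9, the 4-1BB receptor, had 408.8, 269.2 and 459.7 in KO, against 132.2, 197.3, 112.3 and 142.7 in WT. Its groups did not overlap either, and the log2 difference was 1.36 ± 0.223 (limma adjusted p = 0.00038). Tnfrsf1b, the receptor TNFR2, averaged 1366 ± 247 in KO and 728.0 ± 131 in WT (SD, n = 3 and 4; limma log2 0.91 ± 0.15, adjusted p = 0.000404). Tnfrsf18, the GITR receptor, averaged 1541 ± 221 in KO and 1118 ± 102 in WT (limma log2 0.46 ± 0.101, adjusted p = 0.00534). Fitted without the cultured cells, these last differences missed the threshold, with adjusted p of 0.0551 for Tnfrsf1b and 0.0977 for Tnfrsf18.

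Fasl, the ligand that triggers death through FAS, moved the other way. It had 136.3, 201.2 and 115.8 normalised reads in naive KO, against 451.6, 375.4, 338.6 and 423.2 in naive WT. Every KO library was below every WT library, and the mean was 2.63-fold lower in KO (limma log2 -1.42 ± 0.297, adjusted p = 0.00371). Its receptor Fas averaged 725.0 ± 145 in KO and 676.8 ± 73.7 in WT, with overlapping groups and no call (limma adjusted p = 0.847). The CD30 ligand Tnfsf8 averaged 2071 ± 236 in KO and 1556 ± 178 in WT (limma log2 0.41 ± 0.109, adjusted p = 0.018). That call was lost when only naive cells were fitted (adjusted p = 0.121), without the 3 gene-rich libraries (0.11), without KO replicate 3 (0.0723) and without WT replicate 4 (0.0545). Cd27, the receptor of naive and memory T cells, had a log2 difference of -0.38 ± 0.175 and Tnfsf11 one of 0.47 ± 0.22, and neither passed the test (limma adjusted p = 0.194 and 0.202). Tnfrsf8 was near 0 in both groups, at 4.229 ± 5.11 in KO and 0.4526 ± 0.905 in WT, and was not called (limma adjusted p = 0.0819). It was called by DESeq2 (adjusted p = 0.0177), without KO replicate 3 (0.00032) and without WT replicate 3 (0.0232).

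Other genes moved with these in naive cells, and their part in the result was not tested. All 5 of 5 cell cycle markers were higher in KO, with a summed level of 6957 to 8652 against 416.6 to 1115 in WT. Of 6 markers of regulatory T cells, which carry Tnfrsf4, Tnfrsf18 and Tnfrsf1b, 4 were higher and none was lower in KO. Their summed level was 1587 to 2126 in KO and 416.5 to 552.2 in WT. Il2ra, which averaged 157.3 in KO and 26.38 in WT, made up only a small part of that gap. None of the 6 was at 0 in either group. The 4 NK and innate lymphoid markers, of a cell type that carries Fasl, were low. Their summed level was 8.327 to 22.3 in KO and 66.13 to 119.5 in WT, with none at 0. Eomes made up most of that sum in both genotypes and was the 1 of them that was tested. It was lower, at 12.16 ± 5.75 in KO and 74.98 ± 12.5 in WT (SD, limma adjusted p = 0.00901). A move of the 4 markers as a set was not shown. Without the 3 gene-rich naive libraries, 5 of the 6 calls were kept, all but that of Tnfsf8.

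In Th2 cells, 3 of the 10 genes were higher and 4 were lower in KO than in WT, against 54.0% called, 29.3% higher and 24.7% lower among all genes tested. The 4 lower genes were the costimulatory receptors Tnfrsf9, Tnfrsf18, Tnfrsf4 and Cd27. The 3 higher genes were Tnfsf8, Fas and Fasl. The median log2 difference was -0.34 over the 10 genes and 0.13 over all genes, and TMM scaling moved the figure for all genes to 0.24.

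The largest difference was in Tnfrsf9, with 3884, 5358 and 3716 normalised reads in Th2 KO against 41506, 36056 and 41037 in Th2 WT. All 3 KO libraries lay far below all 3 WT libraries. The groups did not overlap in 7 of the 10 genes and 64.6% of all genes. The mean was 9.15-fold lower in KO (limma log2 -3.21 ± 0.238, adjusted p = 1.19e-09). Tnfrsf18 had 9357, 10857 and 9423 in KO, against 35927, 32745 and 31468 in WT. Again the groups were far apart, and the mean was 3.38-fold lower in KO (limma log2 -1.76 ± 0.108, adjusted p = 9.39e-11). Tnfrsf4 had 9886, 12586 and 9857 in KO, against 24678, 24649 and 24181 in WT. It was lower in all 3 KO libraries and its mean was 2.27-fold lower (limma log2 -1.20 ± 0.136, adjusted p = 4.17e-07). Cd27 averaged 170.1 ± 47.9 in KO and 372.2 ± 112 in WT (SD, n = 3 each), with limma giving a log2 difference of -1.12 ± 0.187 (adjusted p = 4.35e-05).

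Tnfrsf8, the CD30 receptor, had 15014, 16512 and 10804 in Th2 KO, against 26736, 25492 and 27187 in Th2 WT. All KO libraries lay below all WT libraries, but the log2 difference of -0.93 ± 0.539 missed the threshold in the fit of 18 libraries (limma adjusted p = 0.157). That fit shares its spread with naive libraries of 0 to 8 reads. The difference passed in a fit of the Th2 libraries alone (adjusted p = 0.00592), with a pseudocount of 5 (0.00374), in edgeR (0.000283) and in DESeq2 (7.09e-09).

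Its ligand Tnfsf8 was higher in KO, with 1983, 1821 and 2095 normalised reads against 1186, 1191 and 1212 in Th2 WT. No KO library fell into the WT range (limma log2 0.71 ± 0.117, adjusted p = 3.45e-05). Fas averaged 317.1 ± 63.4 in KO and 211.1 ± 42.2 in WT, a log2 difference of 0.59 ± 0.19 (limma adjusted p = 0.0132). The Fas call was lost when only Th2 libraries were fitted (adjusted p = 0.0671), without KO replicate 3 (0.0901) and without WT replicate 1 (0.0866). Fasl had 108.1, 105.7 and 38.47 in KO, against 46.38, 31.54 and 57.38 in WT. KO replicate 3 lay within the WT range, so the groups overlapped. The Fasl log2 difference was 0.78 ± 0.318 (limma adjusted p = 0.0439), and without KO replicate 3 it was 1.27 (adjusted p = 0.000482). In 6 alternatives the Fasl call was lost, among them leaving out KO replicate 1 or 2 or WT replicate 1 or 2, with adjusted p from 0.0673 to 0.239. Tnfrsf1b (log2 0.28 ± 0.16) and Tnfsf11 (0.25 ± 0.235) did not pass the test, with limma adjusted p of 0.16 and 0.387. TMM scaling called Tnfrsf1b, with a log2 difference of 0.41 (adjusted p = 0.0394).

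Of 5 cell cycle markers 2 were higher in Th2 KO, with a summed level of 101837 to 122266 against 52188 to 54955 in WT. Of the 6 regulatory T cell markers, Ikzf2 and Ikzf4 were higher and Ctla4 was lower. Their summed level was 23402 to 30198 in KO and 45471 to 49627 in WT, and most of that gap was Ctla4, which averaged 3851 in KO and 23676 in WT. Foxp3 was near 0, at 3.769 ± 1.29 in KO and 21.05 ± 19.6 in WT. The 4 NK and innate lymphoid markers summed to 87.43 to 169.3 in KO, with Klra8 at 0, and to at most 4.989 in WT, with Klrb1c, Ncr1 and Klra8 at 0. The part of these markers in the results was not tested.

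In Th2-Th1 cells, 3 genes were higher and 5 lower in KO, against 33.7% called, 17.6% higher and 16.1% lower among all genes tested. The lower genes were both ligands Tnfsf11 and Tnfsf8 and the receptors Cd27, Tnfrsf9 and Tnfrsf4. The higher genes were Fasl, Fas and Tnfrsf1b. The KO and WT libraries of all 10 genes did not overlap, which held for 59.9% of all genes in this comparison with 2 WT libraries. The median log2 difference was -0.52 over the 10 genes and 0.09 over all genes.

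Tnfsf11, the ligand RANKL, had 2202, 2084 and 1237 normalised reads in Th2-Th1 KO, against 14325 and 16129 in Th2-Th1 WT. The KO libraries were all several-fold below the WT libraries, and the mean was 8.27-fold lower (limma log2 -3.09 ± 0.263, adjusted p = 4.8e-08). Tnfsf8 had 3935, 4195 and 5119 in KO, against 18022 and 16213 in WT. Its mean was 3.88-fold lower in KO (limma log2 -1.96 ± 0.13, adjusted p = 2.34e-09). Cd27 had 218.7, 218.4 and 210.9 in KO, against 1013 and 1161 in WT, and was 5.03-fold lower (limma log2 -2.32 ± 0.21, adjusted p = 1.04e-07). The 3 KO libraries were close together and far below both WT libraries.

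Tnfrsf9 had 22599, 19751 and 10998 in Th2-Th1 KO, against 37240 and 34881 in Th2-Th1 WT. KO replicate 3 was the lowest of the 5, and the mean was 2.03-fold lower in KO (limma log2 -1.08 ± 0.267, adjusted p = 0.00363). The call was lost when only Th2-Th1 libraries were fitted, with an adjusted p of 0.0868. Tnfrsf4 averaged 13579 ± 1287 in KO and 24507 ± 1660 in WT, a log2 difference of -0.85 ± 0.152 (limma adjusted p = 0.000224). Tnfrsf18 averaged 8890 ± 568 in KO and 10110 ± 152 in WT and did not pass the test (limma log2 -0.19 ± 0.12, adjusted p = 0.257).

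The pair of death genes was higher in Th2-Th1 KO. Fasl had 1468, 1386 and 1173 normalised reads in KO, against 413.4 and 324.1 in WT. All KO libraries lay well above both WT libraries, and the mean was 3.64-fold higher (limma log2 1.86 ± 0.355, adjusted p = 0.000418). Fas had 385.9, 323.1 and 408.9 in KO, against 155.9 and 129.0 in WT (limma log2 1.38 ± 0.212, adjusted p = 5.05e-05). The TNF receptor Tnfrsf1b averaged 1238 ± 202 in KO and 681.2 ± 3.84 in WT (limma log2 0.85 ± 0.179, adjusted p = 0.00105). Tnfrsf8 averaged 7309 ± 547 in KO and 4609 ± 571 in WT (SD, n = 3 and 2), a log2 difference of 0.67 ± 0.602 with no call in the fit of 18 libraries (limma adjusted p = 0.442). It was called in a fit of the groups compared alone (adjusted p = 0.0207), in edgeR (0.0168) and in DESeq2 (0.000392).

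Cell cycle markers ranged over 47479 to 70638 in Th2-Th1 KO and 67387 to 70524 in Th2-Th1 WT, and none of the 5 was called. The regulatory T cell markers summed to 58223 to 72096 in KO and 125077 to 126327 in WT, with Ikzf2 and Ikzf4 higher and Ctla4 and Nrp1 lower. The NK and innate lymphoid markers summed to 15.16 to 42.86 in KO, with Ncr1 at 0, and to 2.324 to 5.906 in WT, with Klrb1c, Ncr1 and Klra8 at 0. Eomes, the 1 of these 4 that was tested, was higher, with a mean of 24.71 in KO and 4.115 in WT (log2 difference 2.25 ± 0.745 SE, limma adjusted p = 0.0249). The part of these markers in the results was not tested.

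**Figure D2:**
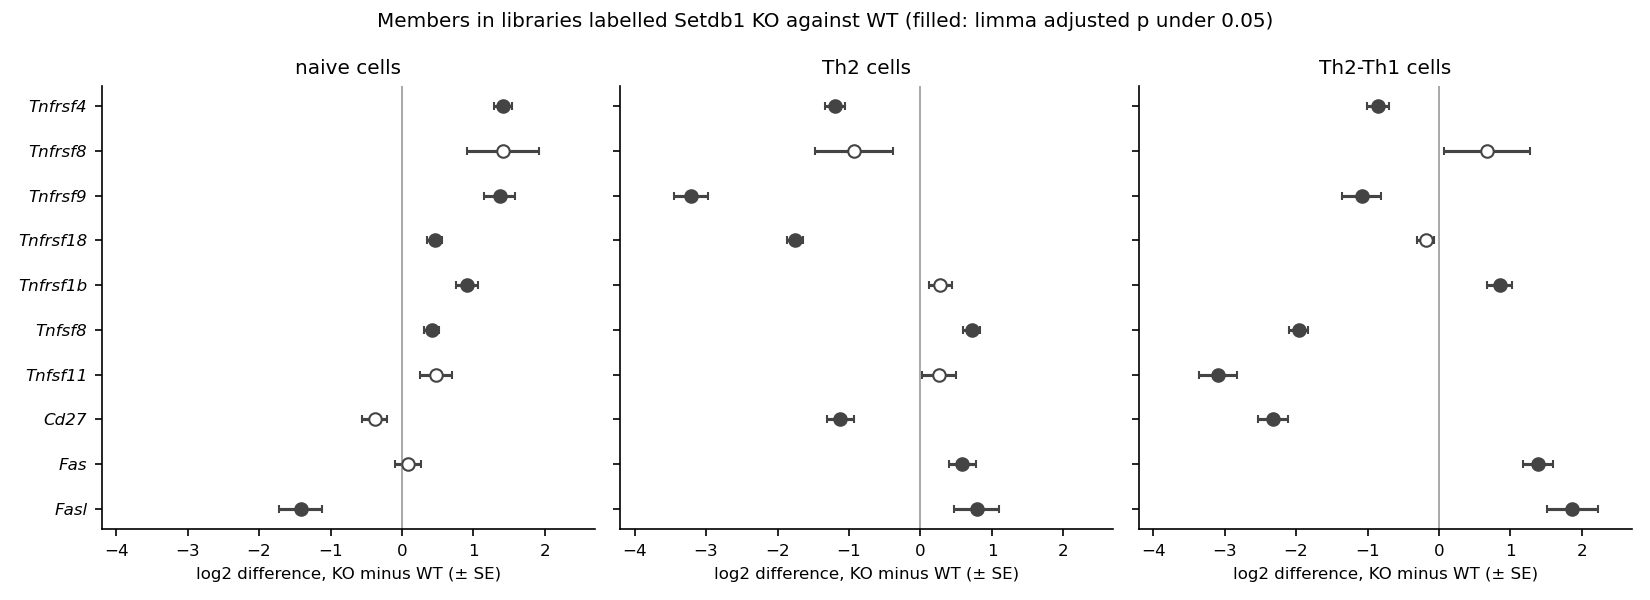
Log2 difference of KO minus WT (horizontal axis) for the 10 genes in naive, Th2 and Th2-Th1 cells, with points at the limma estimates (filled where the adjusted p is under 0.05) and bars at 1 standard error. Tnfrsf9 reads 1.36 in naive cells, -3.21 in Th2 cells and -1.08 in Th2-Th1 cells.

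Between naive and Th2 cells, 9 of the 10 genes changed in KO, against 53.5% of all genes tested, and all 10 in WT, against 65.9%. In both genotypes the receptors Tnfrsf4, Tnfrsf8, Tnfrsf9, Tnfrsf18 and Tnfrsf1b and the ligand Tnfsf11 rose, while Cd27, Fas and Fasl fell. Whether the genotypes differed in these changes was tested in the same fit. That test called 7 of the 10 genes, 1 higher and 6 lower in KO, against 41.3% called, 20.7% higher and 20.6% lower among all genes. The median of this difference over all genes was 0.10, and 0.21 with TMM scaling.

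Tnfrsf9 rose 11.4-fold in Th2 KO against naive KO, and 271-fold in Th2 WT against naive WT. Its log2 change was 3.52 in KO and 8.10 in WT, and the difference of the changes was -4.58 ± 0.326 (limma adjusted p = 3.47e-09). Tnfrsf4 rose 16.8-fold in KO and 102-fold in WT, a difference of -2.61 ± 0.186 in log2 change (limma adjusted p = 3.57e-09). Tnfrsf18 rose 6.41-fold in KO and 29.9-fold in WT, a difference of -2.21 ± 0.147 (limma adjusted p = 1.5e-09). In each of the 3 genes, KO started higher in naive cells and ended lower in Th2 cells. Tnfrsf8 was nearly silent in naive cells, with 10 reads over 3 KO libraries and 1 read over 4 WT libraries. Against these few reads the Th2 mean was 3336-fold higher in KO (95% exact Poisson interval 1814 to 6958), and 58489-fold higher in WT (10498 to 2310182), intervals that cover counting error only. The fitted changes of Tnfrsf8 differed by -2.35 ± 0.738 (limma adjusted p = 0.0153), a value that ran from -4.30 in DESeq2 to -1.52 without naive KO replicate 1.

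Fasl fell in both genotypes, 1.80-fold in KO and 8.81-fold in WT, and the difference of the changes was 2.20 ± 0.435 (limma adjusted p = 0.000437). The KO fall (limma log2 -0.94, adjusted p = 0.0173) was lost in 4 alternatives, with adjusted p from 0.0971 to 0.157. Without naive KO replicate 2 it was -0.72 and without Th2 KO replicate 3 it was -0.46. Fas fell 2.29-fold in KO and 3.21-fold in WT, and its changes did not pass the test of a difference (limma adjusted p = 0.134). Cd27 fell 27.4-fold in KO and 16.3-fold in WT, a difference of -0.74 in log2 change (limma adjusted p = 0.0262), lost in 7 alternatives with adjusted p from 0.0545 to 0.0941. They include leaving out naive KO replicate 1 or 3, Th2 KO replicate 2 or Th2 WT replicate 3. The ligand Tnfsf11 rose 4.28-fold in KO and 4.82-fold in WT, and its changes did not pass the test of a difference (limma adjusted p = 0.631). Tnfrsf1b rose 1.35-fold in KO and 2.09-fold in WT, and the difference of -0.64 in log2 change (limma adjusted p = 0.0258) was lost with TMM scaling (0.0727) and without naive KO replicate 1 (0.0827), Th2 KO replicate 3 (0.0694) or Th2 WT replicate 1 (0.0695). The KO rise of Tnfrsf1b itself (limma adjusted p = 0.0248) was lost in 6 alternatives, with adjusted p from 0.0503 to 0.128. Leaving out naive KO replicate 2 or 3, or Th2 KO replicate 1 or 2, was among them. Tnfsf8 did not pass the test in KO (limma log2 -0.07, adjusted p = 0.637) and fell in WT (log2 -0.37, adjusted p = 0.00553).

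After the switch to IL-12, 5 of the 10 genes changed in KO cells, against 26.7% of all genes tested, and 8 in WT cells, against 49.8%. The ligands Tnfsf8, Tnfsf11 and Fasl rose in both genotypes. The test of the difference between the genotypes called 6 of the 10 genes, 3 higher and 3 lower in KO, against 35.5% called, 17.3% higher and 18.2% lower among all genes.

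Tnfsf11 and Tnfsf8 rose less in KO. Tnfsf11 rose 2.68-fold in KO and 26.4-fold in WT, a difference of -3.34 ± 0.352 in log2 change (limma adjusted p = 5.67e-07). Tnfsf8 rose 2.25-fold in KO and 14.3-fold in WT, a difference of -2.68 ± 0.175 (limma adjusted p = 1.84e-09). Cd27 had a log2 change of 0.38 in KO, which did not pass the test (limma adjusted p = 0.154), and rose 2.92-fold in WT. Without Th2 KO replicate 3 its KO change was 0.58 and passed (adjusted p = 0.0317). Its changes differed by -1.20 ± 0.281 (limma adjusted p = 0.00234). Fasl rose by 4.12 on the log2 scale in KO and by 3.03 in WT, and these changes did not pass the test of a difference (limma adjusted p = 0.0861). They passed it without Th2 KO replicate 1 (0.0417), Th2 KO replicate 2 (0.0462) or Th2 WT replicate 2 (0.0434).

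The receptors Tnfrsf9 and Tnfrsf18 followed another course. Tnfrsf9 rose 4.12-fold in KO (limma log2 2.00, adjusted p = 2.78e-06) and changed by -0.13 in log2 in WT without passing the test (adjusted p = 0.736). The difference of the changes was 2.13 ± 0.358 (limma adjusted p = 0.000113). Tnfrsf18 had a KO log2 change of -0.15 that did not pass the test (limma adjusted p = 0.36), and fell 3.30-fold in WT. Tnfrsf8 had a KO log2 change of -0.93 that did not pass either (limma adjusted p = 0.24), and fell 5.74-fold in WT (adjusted p = 0.00164). The changes of Tnfrsf18 differed by 1.57 ± 0.162 (limma adjusted p = 4.31e-07). Those of Tnfrsf8 differed by 1.60 and missed the threshold (limma adjusted p = 0.137), but passed it in edgeR (0.000149), in DESeq2 (4.57e-11), with a pseudocount of 5 (0.00217) and in a fit of the compared groups alone (0.000473). The KO change of Tnfrsf8 passed under the same 4 alternatives, with adjusted p from 3.32e-09 to 0.0106. Tnfrsf4 did not pass the test in either genotype, with log2 changes of 0.34 in KO (limma adjusted p = 0.0753) and -0.00 in WT (1.0). The KO change of Tnfrsf4 passed in DESeq2 (0.0416) and without Th2 KO replicate 2 (0.0305). Tnfrsf1b fell in KO by 0.58 and in WT by 1.16 on the log2 scale, and Fas fell by 0.55 in WT (limma adjusted p = 0.0375), a call lost in 6 alternatives with adjusted p from 0.0675 to 0.242, including without Th2 WT replicate 2 or 3 or Th2-Th1 WT replicate 2. The changes of Fas differed by 0.79 ± 0.284 (limma adjusted p = 0.0358), a call lost in 10 alternatives with adjusted p from 0.0552 to 0.149. Among them were leaving out Th2 KO replicate 1 or 2, Th2 WT replicate 2 or 3, Th2-Th1 KO replicate 1 or 3, or Th2-Th1 WT replicate 2.

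**Figure D3:**
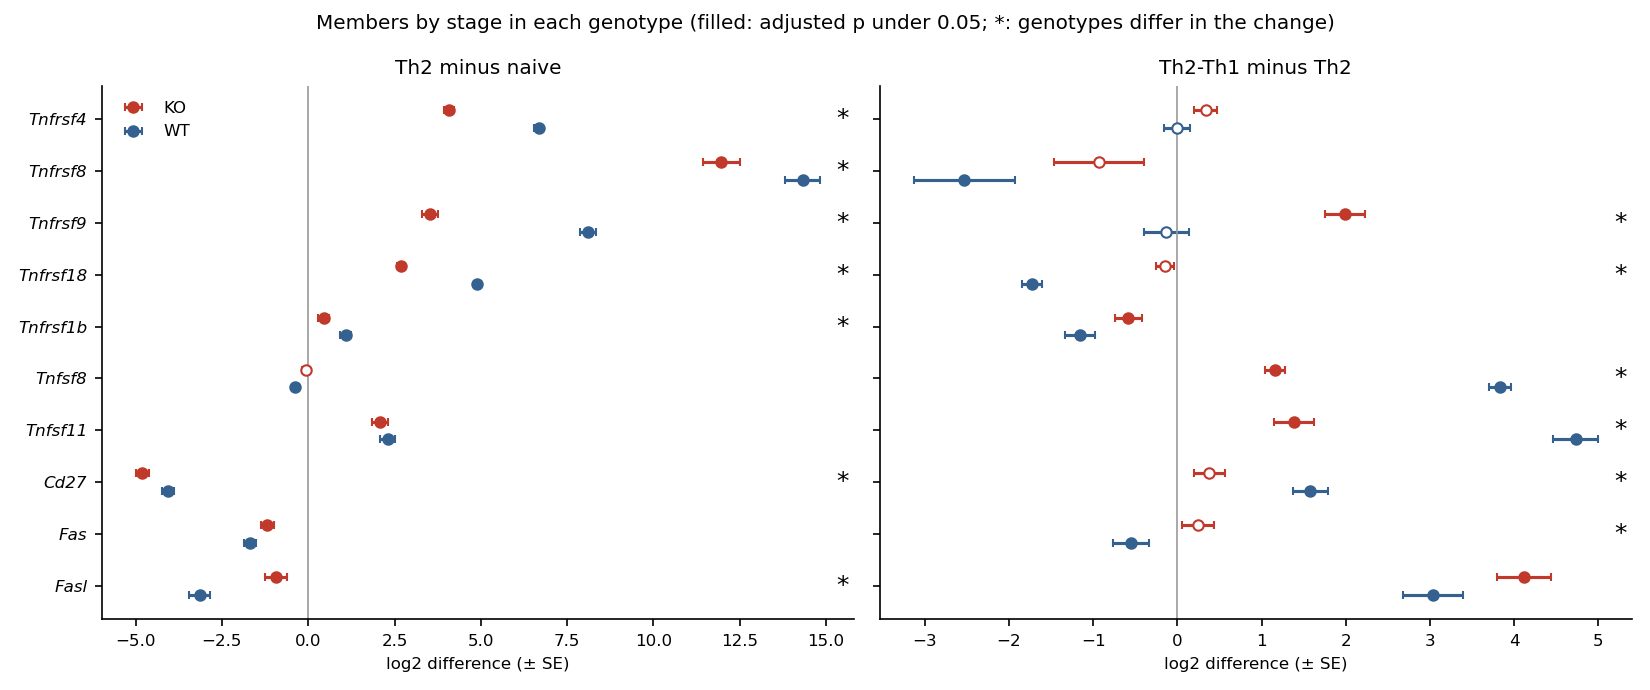
Log2 difference of Th2 against naive cells and of Th2-Th1 against Th2 cells (horizontal axis) for the 10 genes, in KO and WT, with points at the limma estimates (filled where the adjusted p is under 0.05), bars at 1 standard error and a star where the genotypes differed. Tnfsf11 changed by 1.38 in KO and 4.73 in WT after the switch to IL-12.

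The level orders of the genes over the 6 groups differed. Tnfrsf9 was highest in Th2 WT and Th2-Th1 WT, which overlapped, followed by Th2-Th1 KO at 17783 ± 6045, Th2 KO at 4319 ± 904, naive KO at 379.3 ± 98.6 and naive WT at 146.1 ± 36.4 normalised reads. Tnfrsf18 was highest in Th2 WT at 33380 ± 2296, with Th2-Th1 WT overlapping Th2 KO below it, at 10110 ± 152 and 9879 ± 848. Cd27 was highest in naive WT at 6073 ± 586 and naive KO at 4663 ± 527, and lowest in Th2 KO at 170.1 ± 47.9, which overlapped Th2-Th1 KO at 216.0 ± 4.42. Fasl was highest in Th2-Th1 KO at 1342 ± 152, above naive WT at 397.2 ± 50.2, which overlapped Th2-Th1 WT at 368.8 ± 63.1. Tnfsf8 was highest in Th2-Th1 WT at 17118 ± 1279 and lowest in Th2 WT at 1196 ± 14.1. Tnfrsf4 was highest in Th2-Th1 WT and Th2 WT, which overlapped at 24507 ± 1660 and 24503 ± 279, then in Th2-Th1 KO and Th2 KO, which overlapped too. Tnfrsf8 ran from Th2 WT at 26472 ± 878 through Th2 KO at 14110 ± 2959 and Th2-Th1 KO to Th2-Th1 WT at 4609 ± 571, with no overlap between neighbours. Tnfsf11 was highest in Th2-Th1 WT at 15227 ± 1275, then in Th2-Th1 KO at 1841 ± 526, and Th2 KO overlapped Th2 WT below them. Fas was highest in naive KO and naive WT, which overlapped, and lowest in Th2-Th1 WT at 142.4 ± 19.1. For Tnfrsf1b most neighbours overlapped, and Th2 KO at 1845 ± 159 and Th2-Th1 WT at 681.2 ± 3.84 were its ends.

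By Pearson r of the log2 values over the 18 libraries, which fall into 3 stages and share them, 4 genes were alike among the 10: Tnfrsf4, Tnfrsf8, Tnfrsf9 and Tnfrsf18, with r from 0.93 to 0.978 between pairs. With Cd27 these 4 gave r from -0.938 to -0.8. Among 10166 genes with a mean of at least 50, the most alike were Cd82 (r 0.991) for Tnfrsf4, Hif1a (0.991) for Tnfrsf9, Surf4 (0.992) for Tnfrsf18 and Tspan31 (0.99) for Tnfrsf8. Nearest to Cd27 was Actn1 (0.991), to Tnfsf11 Ppfibp1 (0.972), to Tnfsf8 Sms (0.959), to Fas Smchd1 (0.969), to Tnfrsf1b Uck2 (0.917) and to Fasl Naa25 (0.907). These are descriptions, with no test.

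Of 36 other genes of the superfamily, 28 were tested. In naive KO 5 were higher and 1 lower, in Th2 KO 14 and 4, and in Th2-Th1 KO 11 and 2, each against the shares of all genes given above. Tnfsf10, the death ligand TRAIL, averaged 2209 ± 304 normalised reads in Th2 KO and 640.4 ± 94.3 in Th2 WT (limma log2 1.79 ± 0.156, adjusted p = 1.15e-08). Ltb, a subunit of membrane lymphotoxin, averaged 1562 ± 363 in Th2 KO and 4688 ± 609 in Th2 WT (limma log2 -1.60 ± 0.181, adjusted p = 3.65e-07). The other lymphotoxin, Lta, averaged 2948 ± 943 in Th2-Th1 KO and 378.9 ± 112 in Th2-Th1 WT (limma log2 2.94 ± 0.279, adjusted p = 1.98e-07). Tnfrsf19 averaged 991.8 ± 360 in Th2-Th1 KO and 39.84 ± 2.12 in Th2-Th1 WT (limma log2 4.53 ± 0.596, adjusted p = 9.79e-06), and Cd40, the receptor for the CD40 ligand, 131.7 ± 8.08 and 4.086 ± 2.44.

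All 25 genes of TNF receptor signalling were tested. In naive KO 10 were higher and 2 lower, against 7.43% and 3.45% of all genes. In Th2 KO 8 were higher and 9 lower, against 29.3% and 24.7%, and in Th2-Th1 KO 12 and 4, against 17.6% and 16.1%. In naive cells the NF-kB subunits Rel, Relb and Nfkb2 and the adaptor Traf1 were higher in KO. Rel averaged 769.5 ± 231 in KO and 330.5 ± 48.1 in WT (limma log2 1.18 ± 0.186, adjusted p = 0.000264). In Th2 cells the inhibitors of NF-kB signalling Tnfaip3 and Nfkbia were lower in KO, and so were Traf4 and Relb. Ikbkb, Chuk, Rel and Fadd were higher in Th2 KO. Tnfaip3 averaged 1794 ± 360 in KO and 9067 ± 849 in WT (limma log2 -2.35 ± 0.367, adjusted p = 2.08e-05), and Nfkbia 1037 ± 84.8 and 3836 ± 375. In Th2-Th1 KO the adaptor Traf6 was higher, at 3001 ± 198 against 1528 ± 10.4 in WT, and Traf5 lower, at 153.4 ± 17.7 against 406.2 ± 53.2.

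The peak lists put chromatin beside these levels, with 1 pooled list per mark and group, so no test of a difference between lists was possible. H3K9me3 regions lay within 50 kb of 1 of the 10 genes in the Th2 KO list, against 4.96% of 16195 genes with a position, and of 9 in the Th2 WT list, against 56.7%. The whole Th2 lists held 1708 regions in KO and 12233 in WT. The 1 region near a member in Th2 KO, of 550 bp inside Tnfsf11, overlapped 1 of the 2 Th2 WT regions there. In naive cells 0 of the 10 genes had a region nearby in KO (6.47% of genes), and 6 in WT (55.2%). The Suv39h1-/- Th2 list, with 43404 regions, held regions near all 10 genes (91.5%). No start window of a member, 250 bases before to 50 after its start, held a region in the KO or WT lists, and Tnfrsf18 had 1 in the Suv39h1-/- list. The share of start windows over all genes was not computed.

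In the Th2 WT list, the region nearest to a Tnfrsf9 start ran from 946 to 2795 bp past the first start, and no region was listed there in Th2 KO. Tnfrsf4 and Tnfrsf18 lie 9.71 kb apart and Tnfrsf8 and Tnfrsf1b 20.3 kb apart, so these pairs share peaks. Over the 10 windows, H3K27ac, a mark of active promoters and enhancers, gave 96 distinct peaks in Th2 KO and 57 in Th2 WT, against 40802 and 31251 peaks in the whole lists. The shares that overlapped the other list were 67.7% of the KO and 89.5% of the WT peaks, beside 71.0% and 77.9% over the whole lists. Each of the 10 genes had a peak within 50 kb in every list of these marks and of H3K4me1, which marks enhancers and promoters. Over all genes the share with a peak was 92.1% in KO and 91.5% in WT for H3K27ac, and 96.4% in KO and 97.2% in WT for ATAC. For H3K4me1 it was 95.1% in Th2 KO and 94.6% in Th2 WT of the second experiment, 94.0% in the other Th2 WT list and 92.4% in naive WT. Open chromatin by ATAC-seq gave 113 peaks in KO and 144 in WT, against 58955 and 92812 peaks in the whole lists. Of these peaks 91.2% in KO and 70.1% in WT overlapped the other list, beside 90.2% and 56.6% over the whole lists. The number of ATAC peaks was lower in KO near each of the 10 genes, and the whole KO list was also the shorter one. The share of all genes with fewer ATAC peaks in KO was not computed, so this count has no background.

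**Figure D4:**
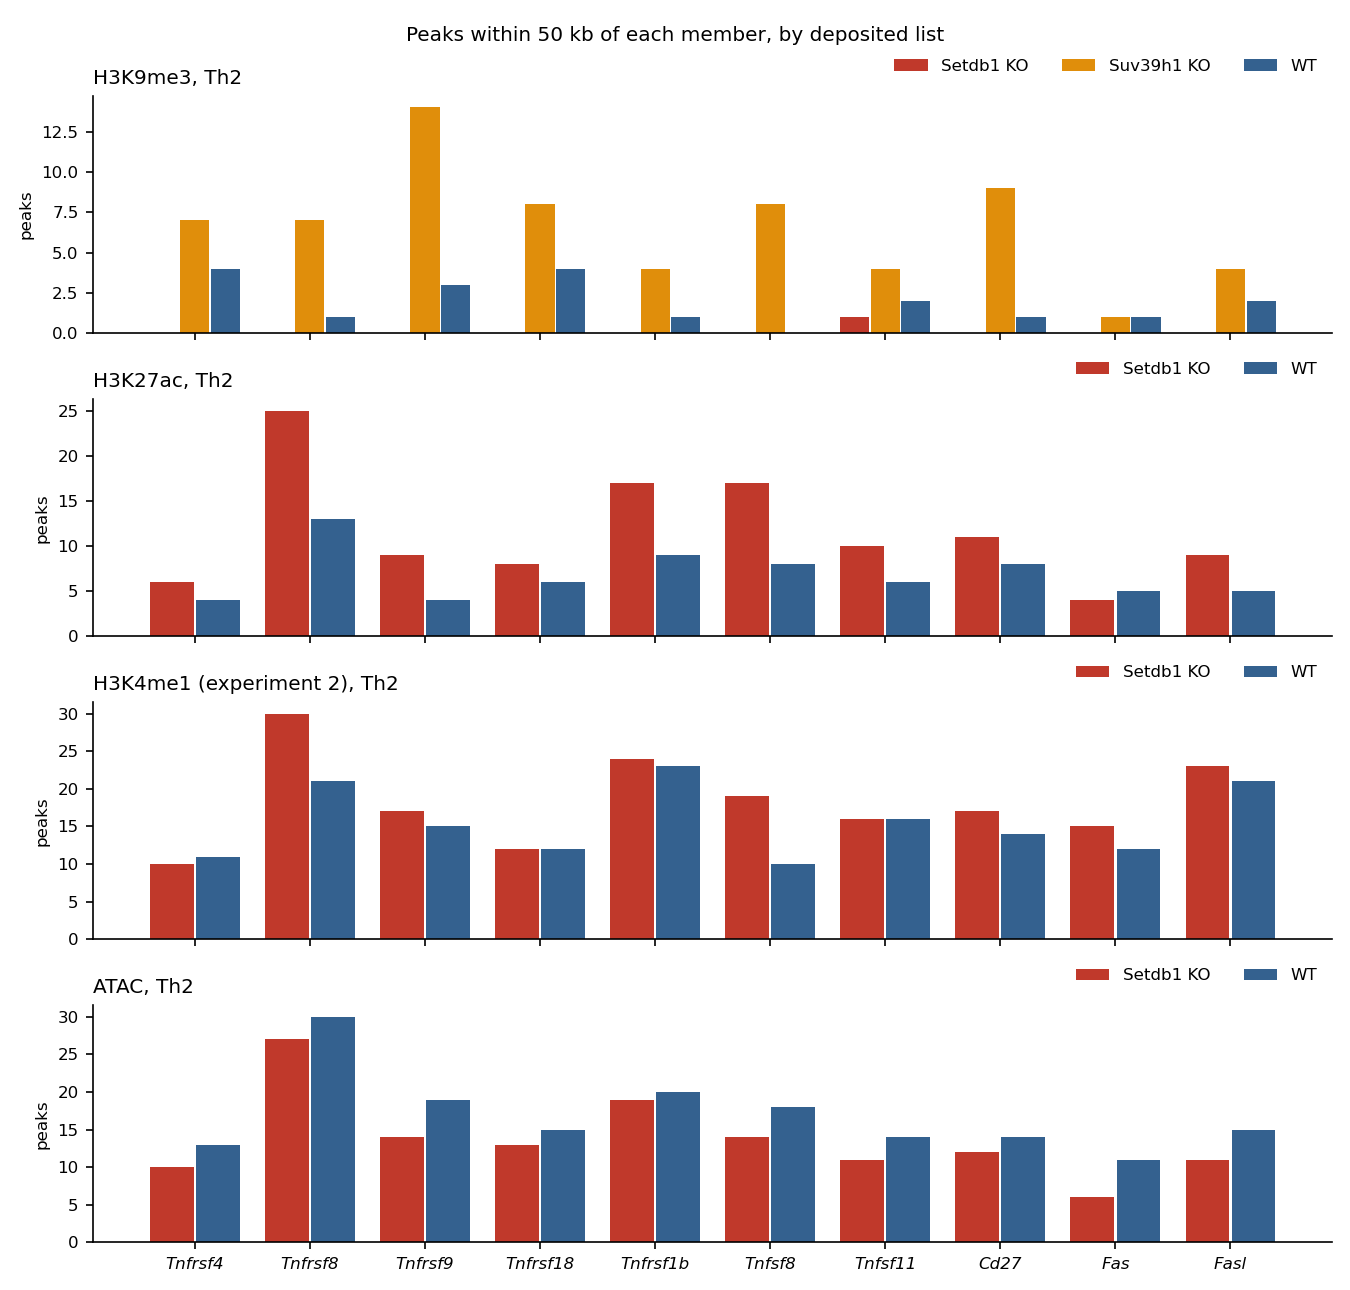
Number of peaks within 50 kb of each of the 10 genes (vertical axis) in Th2 KO and Th2 WT lists, one panel per mark, with the Suv39h1-/- list added between them in the H3K9me3 panel. Near Tnfrsf9 the H3K27ac list has 9 peaks in KO and 4 in WT, and the ATAC list has 14 in KO and 19 in WT.

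H3K27ac peaks covered the start of all 10 genes in both the KO and WT lists, and ATAC peaks the start of 9, all but Cd27. The share of all genes with such a peak was not computed, so these counts have no background. At Tnfrsf9 the ATAC peak lay over the second start, from 7364 to 7911 bp past the first start in KO (548 bp) and from 7060 to 7947 bp in WT (888 bp). No ATAC peak lay over the first start in either list. H3K27ac was 1 domain of 16004 bp over both starts in WT, and in KO 2 domains of 9813 and 5429 bp. The first KO domain ended 2505 bp and the second began 2991 bp past the first start. Over the whole H3K27ac lists the median peak length was 613 bp in KO and 1141 bp in WT. At the starts of Tnfrsf4 and Tnfrsf18 the split went the other way, with 1 domain of 31114 bp in KO and 2 of 14547 and 14900 bp in WT. The covered length near Tnfrsf9 was 19.5 kb in KO and 18.7 kb in WT for H3K27ac, and 5.70 kb in KO and 8.71 kb in WT for ATAC. The whole H3K27ac lists covered 47.17 Mb in KO and 52.83 Mb in WT. For ATAC the whole lists covered 20.68 Mb in KO and 33.53 Mb in WT, so KO was the lower one there too. H3K27ac covered 5.89 kb in KO and 10.7 kb in WT near Tnfsf11, 10.9 kb in KO and 5.37 kb in WT near Fasl, and 21.0 kb in KO and 15.1 kb in WT near Tnfrsf1b. It covered 4.32 kb in KO and 5.52 kb in WT near Fas. Near the other 5 genes the lengths were close, for example 35.0 kb in both lists near Tnfrsf4 and 53.0 kb in KO and 52.2 kb in WT near Tnfrsf8.

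**Figure D5:**
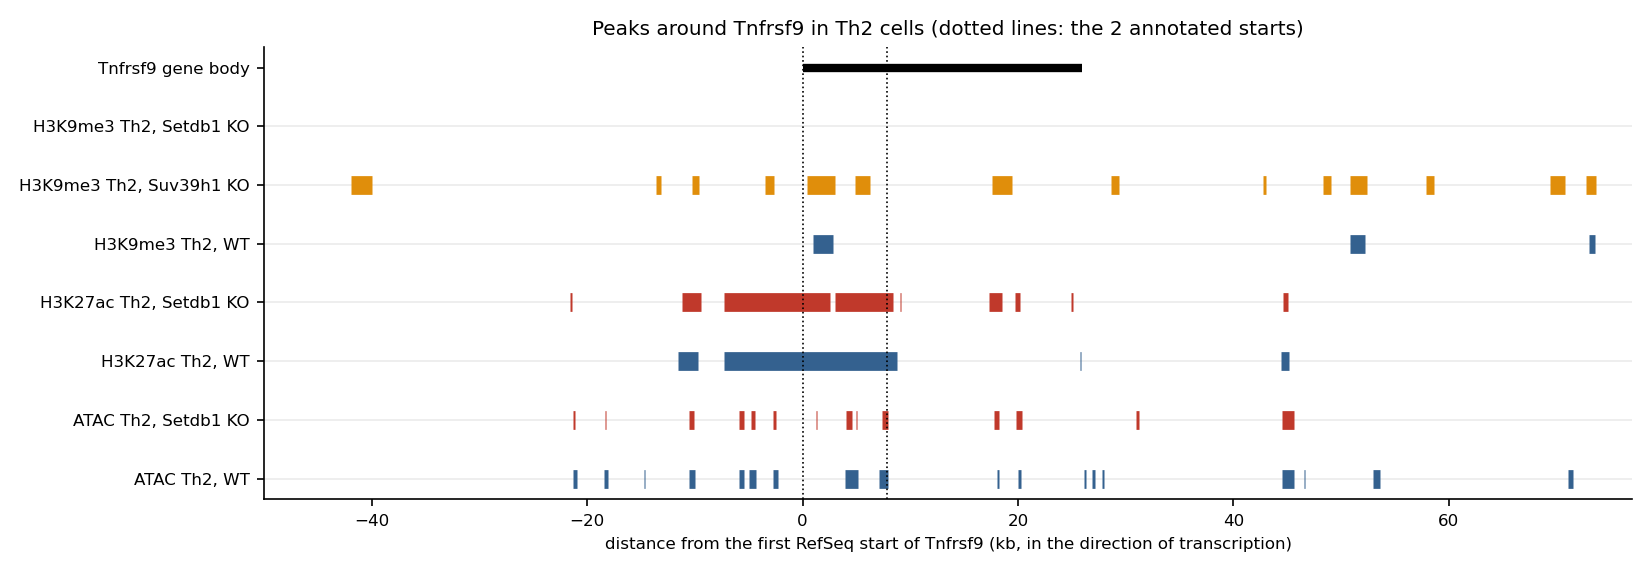
Peaks around Tnfrsf9 in Th2 cells by distance from its first start site in kb (horizontal axis), with KO above WT for each mark, the Suv39h1-/- H3K9me3 list between them, and dotted lines at both start sites. A WT H3K9me3 region lies 946 to 2795 bp past the start and no KO region is drawn there.

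Tnfrsf18 and Cd27 lie wholly within long noncoding RNA genes. Whether the counting used strand is not stated, so their reads and those of the noncoding partner cannot be told apart. Tnfrsf4 overlaps Sdf4 by 16 of its 3019 bp. The noncoding partner of Tnfrsf18, Gm16008, averaged 151.6 normalised reads in Th2 KO and 765.0 in Th2 WT.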

How the data were processed

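The authors sequenced RNA, chromatin and accessible DNA. Per the submitters' processing notes, cutadapt 1.3, TopHat2 2.0.5, BWA 0.7.10, MACS2 2.1.0, DESeq and mm10 were used. The labels name no counting annotation. The deposited RNA signal values are read counts divided by a size factor per library. Reads were recovered as whole numbers within 0.01 for 100% of values. The table held 2 identical copies, and the first was used. The score and fold ratio per peak are the authors' own, and the labels do not give the H3K9me3 scale. Scores served only to keep peaks at or above a list's median as an alternative.

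log2 of the deposited value plus 1 was tested with limma 3.58.1 (trend) in R 4.3.3, with 18 libraries in 1 fit of 6 groups and 12 residual degrees of freedom. The 17254 genes that reached a value of 10 in 2 or more libraries were tested, and p was adjusted by Benjamini-Hochberg over them. DESeq2 1.42.0 and edgeR 4.0.16 (quasi-likelihood) were run on the recovered reads as alternatives. edgeR called 1895, 9189 and 6043 genes in naive, Th2 and Th2-Th1 KO against WT, DESeq2 2598, 9371 and 6419, and limma 1877, 9324 and 5810. The other alternatives were TMM scaling, a pseudocount of 5, no filter, a fit of the compared groups alone, a replicate block and leaving out libraries. Scripts were tested on simulated data. Peaks were counted within 50 kb of RefSeq gene bodies (GRCm38) with Python 3.11.15 and pandas 2.3.3, and shared peaks overlap by at least 1 bp.

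All 10 genes are named in every comparison, and from the 2 further lists those with the largest called changes, without overlap and with a mean of at least 50; the text names a selection. The members, lists and tests were chosen with earlier results of these data known.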

Additional observations from a re-analysis of the deposited data

Results flagged for a closer look

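The response to Th2 culture differed between KO and WT in 7 of the 10 genes, against 41.3% of all genes (limma interaction test). The difference of the log2 changes, KO minus WT, was -4.58 for Tnfrsf9, -2.61 for Tnfrsf4, -2.22 for Tnfrsf18 and -2.35 for Tnfrsf8. It was -0.741 for Cd27, -0.636 for Tnfrsf1b and 2.20 for Fasl. The response to the switch, which joined IL-12, an antibody against IL-4 and 2 further days, differed in 6 genes, against 35.5% of all genes. The differences were -3.34 for Tnfsf11, -2.68 for Tnfsf8, -1.20 for Cd27, 2.13 for Tnfrsf9, 1.57 for Tnfrsf18 and 0.794 for Fas. The calls of Cd27 and Tnfrsf1b for Th2 culture and of Fas for the switch were lost in several alternatives, as given above. The Tnfrsf8 values of the 4 naive WT libraries held a gap ratio of 1.0, since 1 library had 1 read and the other 3 had 0. The ratio can only be 1.0 for such counts, so the usual chance rate of about 1 in 20 groups does not apply here.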

How the results depend on the processing

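Of 1330 alternative values for the 90 member results, 1236 kept direction and side of the threshold, 54 lost the call, 29 gained one and 11 changed sign. Members called in naive cells numbered 6, and 3 when naive cells were fitted alone. H3K9me3 regions lay near 6 members in naive WT at 50 kb, and near 1 at 10 kb and 1 among regions at or above the median score. In Th2 KO they lay near 1 member, and near 0 among regions at or above the median score, and in Th2 WT near 9, and near 4 at 10 kb. The sign changes were all in uncalled values near 0: Fas in naive cells (-0.0501 to 0.243 leaving out one replicate), Tnfsf8 in Th2 against naive KO (0.0131 with TMM, -0.122 to 0.0214 leaving out one replicate), and Tnfsf11 in the genotype by Th2 culture test (-0.34 to 0.019 leaving out one replicate). Tnfrsf4 in Th2-Th1 against Th2 WT gave 0.0191 with TMM, 0.000271 in edgeR, 0.000114 in DESeq2, and -0.0704 to 0.0678 leaving out one replicate. The causes were not tested.

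With the replicate number as a block, 85 of 90 results kept direction and call. Fas lost its call in Th2-Th1 against Th2 WT and in the genotype by switch test, Tnfsf8 gained one in the genotype by Th2 culture test and Tnfrsf1b one in the genotype by switch test, and Tnfrsf4 in Th2-Th1 against Th2 WT was 0.0461. With group means removed, same-numbered libraries correlated between -0.411 and 0.13 over 40 pairs, with 1 above 0.1. In groups this small, such values cannot settle whether equal numbers share an animal or culture. Leaving out one replicate gave 5 to 7 members called in naive cells, 5 to 7 in Th2 and 8 in Th2-Th1 cells. All genes called in naive cells numbered 1877, against 407 when they were fitted alone, 890 without the 3 gene-rich libraries, and 1183 and 1076 without naive KO replicate 1 and 2. In Th2-Th1 cells they numbered 5810, and 3847 without WT replicate 2. Having 2 Th2-Th1 WT libraries and low reads of Tnfrsf8 in naive cells limits the precision.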

Other observations

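Other genes of the superfamily changed with culture. In WT cells, Tnfsf14, the ligand LIGHT, averaged 571.3 ± 11.7 normalised reads in Th2 against 4.384 ± 4.66 in naive cells (SD, n = 3 and 4; limma log2 7.22, adjusted p = 9.56e-10). Tnfsf4, the ligand of OX40, averaged 294.6 ± 45.2 in Th2 WT and 10.52 ± 10.6 in naive WT (limma adjusted p = 3.91e-07). Tnfrsf25, a death domain receptor, averaged 48.31 ± 6.38 in Th2 WT and 590.0 ± 51.2 in naive WT (limma log2 -3.59, adjusted p = 1.75e-12). After the IL-12 switch, the CD40 ligand gene Cd40lg averaged 2249 ± 338 in Th2-Th1 WT and 404.3 ± 58.3 in Th2 WT (limma log2 2.47, adjusted p = 1.33e-06). Ltb averaged 144.3 ± 38.1 in Th2-Th1 WT and 4688 ± 609 in Th2 WT (limma log2 -5.03, adjusted p = 8.07e-13).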
